A study of Mus musculus with 24 samples.

Results

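This comparison set 3 lungs of mice lacking gasdermin D and kept in room air (KO-RA) against 3 lungs of wild-type mice kept in room air (WT-RA), so it measured the effect of genotype on the neonatal lung without hyperoxic injury. Its members are the 16202 autosomal genes that passed a filter on low counts, out of 36109 genes listed for the lung. The whole series holds 24 samples, 12 lungs and 12 retinas, each from 1 mouse, in groups of 3 by genotype and oxygen. GSDMD-KO mice on the C57/B6 background carried a homozygous deletion of 38 bp in exon 5 of Gsdmd in every cell of the body, so no cell type was singled out. The paper describes the WT and KO pups as littermates from heterozygous matings. Both groups breathed 21% O2 from postnatal day 1 to 14, and whole lungs were collected on postnatal day 15. The labels do not say which pups shared a litter. The lungs of mice exposed to 85% O2 over the same days (WT-O2 and KO-O2) and the room-air retinas collected on postnatal day 18 were used only to see whether a difference found in room-air lungs was also present in other mice.

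Gasdermin D is the pore-forming protein of pyroptosis. Inflammatory caspases, activated by inflammasomes, cut it, and its released part opens pores in the plasma membrane through which interleukin-1 family cytokines leave the cell. In the lung the cells best known for this pathway are macrophages. Alveolar macrophages settle in the airspaces during the first days after birth, mature under the factor PPARγ, and clear surfactant and debris.

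Libraries were of even depth, with 28763661 to 29210924 counts assigned to genes in WT-RA (median 29098576) and 28800760 to 29034998 in KO-RA (median 28823628). Levels below are in CPM, the count of a gene scaled with TMM to one library size for all lungs, and fold changes are log2 of KO-RA over WT-RA. Lung markers were high in all 6 lungs, with surfactant protein C (Sftpc) at 12970 to 15017 CPM and the club cell protein Scgb1a1 at 9336 to 12284 CPM of the library total. Genes of the Y chromosome were expressed in 2 of the 3 KO-RA lungs, replicates 2 and 3, and in 0 of the 3 WT-RA lungs, so sex is partly confounded with genotype. WT-RA replicate 3 stood nearest to the KO-RA lungs for several gene groups below. Because whole lungs were sequenced, fewer cells of a type and less RNA per cell cannot be told apart.

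Gsdmd itself was measured first. The WT-RA lungs held 41.4, 42.3 and 40.6 CPM and the KO-RA lungs 24.8, 24.5 and 22.6 CPM. The groups did not overlap, and the mean fell from 41.4 ± 0.885 to 24.0 ± 1.19 CPM (SD, n = 3 each), a log2 fold change of -0.79 (SE 0.11, adjusted p = 0.0135, edgeR quasi-likelihood test). Counts cover the whole gene, so a deletion of 38 bp leaves most of the transcript countable, and the labels fit the level in all 6 lungs. By qRT-PCR the paper found almost no Gsdmd in KO lungs, in room air or hyperoxia. Why the counts kept more of it was not tested. Gsdmd was lower in KO in the hyperoxia lungs too, by -1.33 (SE 0.11, adjusted p = 8.33e-05). In the room-air retinas its level was low, at 4.08, 0.419 and 2.70 CPM in WT-RA and 0.980, 0.774 and 0.636 CPM in KO-RA. The groups overlapped there, with WT-RA replicate 2 the lowest retina. The log2 fold change in the retinas was -1.58 (SE 0.65, unadjusted p = 0.033, adjusted p = 0.346). In room-air lungs its adjusted p was 0.158 with a term for Y-linked expression and 0.129 without KO-RA replicate 3, with log2 fold changes of -0.77 and -0.75.

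Differences beyond Gsdmd were few and mostly towards lower expression in KO-RA. With the threshold of an adjusted p below 0.1 and a difference of 2-fold or more (and p below 0.05), 6 genes were higher in KO-RA (0.037% of those tested) and 15 were lower (0.0926%). Without the fold threshold 23 genes were higher (0.142%) and 56 were lower (0.346%). None of these 79 genes had overlapping groups, and 58 of them changed by less than 2-fold, with a median absolute log2 change of 0.69. At an unadjusted p under 0.05, 816 genes were higher (5.04%) and 891 lower (5.5%), while 1192 genes lay higher in KO-RA without overlap (7.36%) and 1267 lower (7.82%). Across all autosomal genes the median log2 fold change was -0.00055, with 50.1% of genes lower in KO-RA, so the excess of lower genes was found among the strongest differences and not in the table at large. DESeq2 gave larger counts, 65 with the fold threshold and 404 without it, and a term for Y-linked expression left 0 genes past the adjusted p by edgeR, although all 79 kept their direction and an unadjusted p under 0.05. The call depended as well on single lungs, since the 79 genes became 591 without WT-RA replicate 3, 40 and 10 without WT-RA replicates 1 and 2, and 3 and 1 without KO-RA replicates 2 and 3. With the Y-linked term 1210 genes had an unadjusted p under 0.05, and in the lungs without Y-linked expression 665 did, a comparison with 1 KO-RA lung that is assumed to vary like the other groups.

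**Figure D1:**
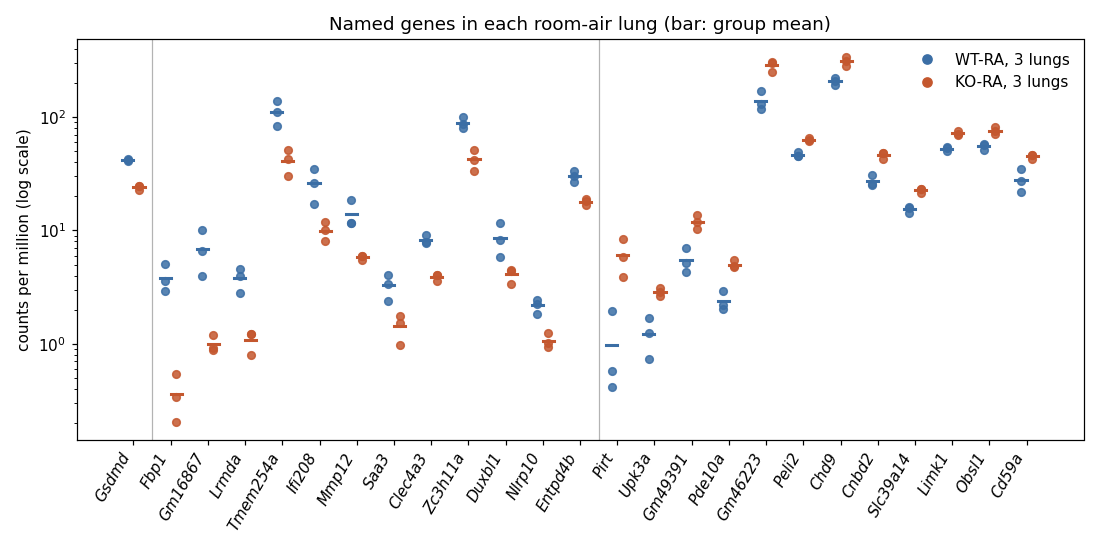
Levels of Gsdmd, the 12 genes named as lower and the 12 named as higher in each of the 6 room-air lungs, in CPM on a log axis, with points for lungs and bars for group means. For each of the 25 genes the 3 WT-RA lungs and the 3 KO-RA lungs occupy separate ranges, from 3.83 against 0.364 CPM on average for Fbp1 to 0.984 against 6.01 CPM for Pirt.

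Genes of alveolar macrophages were lower in KO-RA as a group. Of 23 tested members of the alveolar macrophage list, 22 were lower in KO-RA, 18 at an unadjusted p under 0.05 against the 5.5% of all genes, and 15 with no overlap between the groups against 7.82%. Only 3 passed the adjusted p, Atp6v0d2, Ear2 and Itgax. The median log2 fold change of the list was -0.50, beside -0.00055 over all genes, and its summed level was 954 to 1440 CPM in WT-RA and 600 to 613 CPM in KO-RA. Chil3 held much of that gap, and without it the sums were 685 to 830 CPM and 527 to 548 CPM, with a median of -0.49 for the other 22 genes. Of these 23 genes, 9 also stand in another list, such as Car4 of capillary endothelium, and of the 14 that do not, 13 were lower, with a median of -0.52.

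Ear2, an eosinophil-associated ribonuclease that mouse alveolar macrophages express strongly, measured 65.0, 67.2 and 61.4 CPM in WT-RA and 37.1, 33.1 and 31.9 CPM in KO-RA. Both groups were narrow and far apart, with a log2 fold change of -0.92 (SE 0.18, adjusted p = 0.0639). Ear2 has close copies, and the summed level of Ear1, Ear2 and Ear6 in KO-RA was 0.569 of that in WT-RA. Itgax, which encodes CD11c, measured 36.0, 38.1 and 29.3 CPM in WT-RA against 25.7, 20.1 and 17.5 CPM in KO-RA, a log2 fold change of -0.71 (SE 0.15, adjusted p = 0.0856). Atp6v0d2, a subunit of the proton pump that acidifies lysosomes, measured 32.3, 30.2 and 26.3 CPM in WT-RA, and the KO-RA lungs lay close together at 18.9, 18.4 and 18.4 CPM. Its log2 fold change was -0.67 (SE 0.12, adjusted p = 0.044). The cholesterol exporter Abcg1 was next by p, at -0.49 (SE 0.11, adjusted p = 0.112).

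Some defining markers of the cell type lay below the WT-RA range without passing the adjusted p, and others overlapped between the groups. The scavenger receptor Marco measured 13.3, 14.97 and 12.1 CPM in WT-RA and 6.12, 6.00 and 6.82 CPM in KO-RA, a log2 fold change of -1.09 (SE 0.24, adjusted p = 0.113). Siglecf, a sialic acid receptor that marks alveolar macrophages and eosinophils, measured 7.92, 6.76 and 6.60 CPM against 5.67, 4.00 and 3.15 CPM, and its log2 fold change was -0.73 (SE 0.22, adjusted p = 0.233). Pparg, which encodes PPARγ, differed least of these, from 8.38, 7.67 and 8.29 CPM to 6.63, 6.65 and 5.90 CPM (log2 fold change -0.34, SE 0.11, adjusted p = 0.268). The chitinase-like protein gene Chil3 had the lowest fold change of the list at -2.60 (SE 0.83, adjusted p = 0.319), with 388, 635 and 269 CPM in WT-RA and 62.0, 86.8 and 64.3 CPM in KO-RA. Retnla, which like Chil3 is a classic product of alternatively activated macrophages and is also made by airway epithelium, measured 394, 574 and 383 CPM in WT-RA and 97.1, 181 and 223 CPM in KO-RA (log2 fold change -1.43, SE 0.56, adjusted p = 0.42). Retnla is not in the macrophage list but in the airway secretory list, where it was the lowest of 18 genes, 11 of which were higher. Chil3 and Retnla thus both varied widely between lungs while their groups stayed apart. Members of the macrophage list whose groups overlapped included Mrc1 at -0.39 (SE 0.13), Fabp4 at -0.42 (SE 0.43) and Fabp1 at -0.23 (SE 0.76). Lpl at -0.52 (SE 0.14), Olr1 at -0.55 (SE 0.18) and Slc39a2 at -0.11 (SE 0.20) overlapped as well. Those near 0 included Bhlhe41 at -0.01 (SE 0.16) and Kcnip4 at 0.14 (SE 0.29), so that list did not move as one block.

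**Figure D2:**
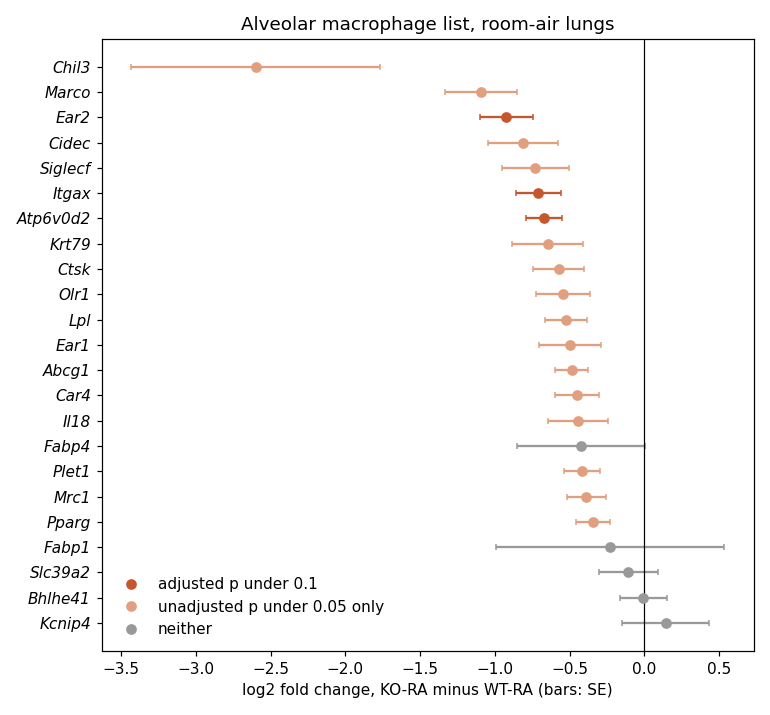
Log2 fold change of KO-RA over WT-RA for the 23 tested genes of the alveolar macrophage list, with bars for the standard error and colours for the threshold passed. All but Kcnip4 lie left of 0, and Ear2, Itgax and Atp6v0d2 are the 3 that passed the adjusted p.

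The difference was present with and without the lungs in doubt. Without WT-RA replicate 3, 21 of the 23 genes were lower, 18 at an unadjusted p under 0.05 and 10 past the adjusted p. With a term for Y-linked expression 20 were lower, 14 of them at an unadjusted p under 0.05 and 0 past the adjusted p by edgeR, and the median was -0.49. In the lungs without Y-linked expression 20 were lower, 9 at an unadjusted p under 0.05. Leaving out WT-RA replicate 1 or 2 or KO-RA replicate 2 or 3 also left 0 past the adjusted p by edgeR, with 14 to 17 at an unadjusted p under 0.05, and DESeq2 on all lungs gave 10. In the hyperoxia lungs 19 of the 23 were lower in KO-O2, with 5 at an unadjusted p under 0.05, against 3.43% of all genes, and a median of -0.07.

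RefSeq promoters were matched for 19 of the 23 members. Those of Ear2 and Itgax, shown because these genes passed the adjusted p, follow as the 250 bases before the start site, and Atp6v0d2, which also passed it, had no match.
Ear2 (GRCm38, chr14:44102404-44102653, plus strand): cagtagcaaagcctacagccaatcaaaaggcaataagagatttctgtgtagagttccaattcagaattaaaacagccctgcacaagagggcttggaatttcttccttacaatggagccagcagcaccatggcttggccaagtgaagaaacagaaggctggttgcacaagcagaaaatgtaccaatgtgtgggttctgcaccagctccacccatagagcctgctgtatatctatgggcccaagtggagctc
Itgax (GRCm38, chr7:128129300-128129549, plus strand): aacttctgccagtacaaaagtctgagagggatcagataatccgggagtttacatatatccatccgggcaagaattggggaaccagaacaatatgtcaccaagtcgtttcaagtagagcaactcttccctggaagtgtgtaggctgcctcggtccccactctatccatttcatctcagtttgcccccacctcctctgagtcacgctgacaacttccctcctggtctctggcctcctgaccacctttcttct
Neither holds a match to GAGGAAGT in this window or the 50 bases after the start, on either strand. Those letters are a longer form of the sites bound by PU.1, the Ets factor of the myeloid lineage. Shorter forms were not searched. Of all 32851 promoters 3.2% held that motif and of the 23 promoters of the list 0 did, which says only that these letters are not there.

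Other genes known from myeloid cells were also among the 56 lower genes. Those described here were picked from them after their values were seen. The list of interstitial macrophages and monocytes fixed for this work had 20 of 25 members lower, with a median of -0.18. Of these 25, 9 were lower at an unadjusted p under 0.05 (36%, against 5.5% of all genes) and 1 passed the adjusted p. Fcer1g, the signalling chain shared by several Fc receptors, measured 50.2, 44.4 and 55.0 CPM in WT-RA and 32.6, 34.0 and 31.3 CPM in KO-RA (log2 fold change -0.61, SE 0.10, adjusted p = 0.0292). Its relative Tyrobp, the adaptor also called DAP12, went from 43.0, 44.7 and 44.8 CPM to 35.3, 28.4 and 27.6 CPM (-0.54, SE 0.11, adjusted p = 0.0856). Genes for the leukocyte integrin chains behaved alike, with Itgb2 (CD18) at -0.57 (SE 0.13, adjusted p = 0.0927) and Itgal (CD11a) at -0.63 (SE 0.12, adjusted p = 0.0461).

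Csf1r, the receptor on which macrophages depend for survival, changed less than these, from 112, 113 and 103 CPM to 80.7, 88.9 and 85.6 CPM (-0.36, SE 0.08, adjusted p = 0.0922). Mpeg1, a pore-forming protein of phagocytes, was lower by -0.55 (SE 0.12, adjusted p = 0.0878) and the Src family kinase gene Fgr by -0.82 (SE 0.13, adjusted p = 0.0292). The C-type lectin receptor genes Clec4a3, Clec4a1 and Clec7a (dectin-1) gave -1.09, -0.84 and -0.75, with adjusted p values of 0.0182, 0.0347 and 0.044. Clec4a3 and Clec4a1 are neighbouring paralogs on chromosome 6 whose reads the counting may divide. Cybb, the X-linked catalytic subunit of the phagocyte NADPH oxidase, lay outside the autosomal set and was also lower, at -0.56 (SE 0.09, adjusted p = 0.0292). In the dendritic cell list 12 of 17 genes were lower, 5 at an unadjusted p under 0.05 against 5.5% of all genes, with a median of -0.34. For neutrophils 14 of 24 genes were higher and 2 were lower at that p, with a median of 0.10, or -0.18 without KO-RA replicate 1, and all 24 B cell genes were lower with 3 of them at p under 0.05 and a median of -0.19. The B cell genes were on average lowest in KO-RA replicate 3 and as high in KO-RA replicate 1 as in WT-RA, and in the lungs without Y-linked expression the median was 0.17.

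Interferon-regulated genes were lower in KO-RA in most members but their level differed more between WT-RA lungs. Type I interferon-stimulated genes, which include antiviral effectors, numbered 40 tested, of which 39 were lower, with a median of -0.41. Of them 23 were lower at an unadjusted p under 0.05 and 10 without overlap, against 5.5% and 7.82% of all genes. For the list of interferon-gamma targets and guanylate-binding or immunity-related GTPases 28 of 29 were lower, with a median of -0.46. Against the same shares, 17 were lower at an unadjusted p under 0.05 and 8 without overlap. Without WT-RA replicate 3, 20 of these 29 had that p and 15 passed the adjusted p, and without WT-RA replicate 1 or 2 or with the Y-linked term 10 had that p. Just 2 genes of the first list, Phf11d and Rtp4, and 1 of the second, Iigp1, passed the adjusted p. The summed level of the type I list was 1093 to 1573 CPM in WT-RA and 1074 to 1090 CPM in KO-RA, the lowest WT-RA value being that of replicate 3. Without that lung, 29 of the 40 genes passed the adjusted p and 34 had an unadjusted p under 0.05, and without WT-RA replicate 1 or 2 0 passed it by edgeR and 13 had that unadjusted p. In the lungs without Y-linked expression 4 of the 40 reached that unadjusted p. DESeq2 put 8 past the adjusted p. In the hyperoxia lungs 23 of the 40 type I genes were lower in KO-O2, with a median of -0.06. At an unadjusted p under 0.05, 2 of them were lower and 1 higher, against 3.43% and 2.75% of all genes. Of the 29 interferon-gamma genes 15 were lower there, with a median of -0.02 and 2 lower at that p. In the room-air retinas 19 of 39 and 8 of 24 tested genes of the lists were lower in KO-RA, with medians of 0.02 and 0.10.

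Iigp1, a GTPase that attacks vacuoles holding pathogens, measured 54.6, 49.6 and 52.7 CPM in WT-RA and 39.8, 30.3 and 38.3 CPM in KO-RA. Its groups were clear of each other with WT-RA replicate 3 included (-0.53, SE 0.10, adjusted p = 0.044). The GTPase gene Igtp followed a different order, with 21.8 and 19.3 CPM in WT-RA replicates 1 and 2, 13.7 CPM in replicate 3 and 12.4, 11.2 and 10.7 CPM in KO-RA (-0.68, SE 0.16, adjusted p = 0.113). Phf11d measured 31.9, 33.6 and 26.1 CPM against 21.8, 21.2 and 20.2 CPM (-0.53, SE 0.10, adjusted p = 0.0549), and the receptor transporter gene Rtp4 37.9, 33.6 and 25.1 CPM against 21.01, 19.9 and 21.1 CPM (-0.64, SE 0.14, adjusted p = 0.0922). Ifi208, of the family of DNA-sensing HIN200 proteins, was lower by more than 2-fold, from 26.1, 34.7 and 17.1 CPM to 11.8, 10.0 and 8.00 CPM (-1.39, SE 0.28, adjusted p = 0.0856). Its family on chromosome 1 has many similar copies, so its share of their reads is uncertain. Cd274, which encodes the checkpoint ligand PD-L1 and is induced by interferon-gamma, was at -0.72 (SE 0.15, adjusted p = 0.0899).

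Genes of antigen presentation on MHC class I separated the groups in more members than the interferon lists did. All 18 tested were lower in KO-RA, 11 at an unadjusted p under 0.05 and 14 without overlap, against 5.5% and 7.82% of all genes. The median was -0.33, and the sums were 2108 to 2335 CPM in WT-RA and 1602 to 1871 CPM in KO-RA. B2m, the light chain of every class I molecule, passed the adjusted p, with 630, 610 and 554 CPM in WT-RA and 435, 462 and 357 CPM in KO-RA (-0.52, SE 0.11, adjusted p = 0.0749). The peptide transporter gene Tap1 measured 59.4, 56.5 and 48.0 CPM against 44.0, 40.3 and 34.0 CPM (-0.47, SE 0.11, adjusted p = 0.113). The immunoproteasome subunit gene Psmb8 differed little within WT-RA, at 37.9, 37.4 and 37.8 CPM, and lay below it in every KO-RA lung, at 32.0, 29.0 and 25.7 CPM (-0.38, SE 0.11, adjusted p = 0.175). With a term for Y-linked expression all 18 were lower, 8 at an unadjusted p under 0.05, and in the lungs without Y-linked expression 2 reached that p. Without WT-RA replicate 3, 13 reached it and 6 passed the adjusted p. For MHC class II, 10 of 11 were lower and 2 reached an unadjusted p under 0.05 (18.2%, against 5.5% of all genes). Of these 2, the lysosomal protease gene Ctss passed the adjusted p, from 81.0, 87.6 and 79.1 CPM to 60.8, 47.7 and 51.2 CPM (-0.63, SE 0.11, adjusted p = 0.0369).

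The promoters of B2m and Igtp, chosen after their values were seen, are shown for the classical interferon elements. Igtp carries both of those searched, and B2m only the first. Capitals mark matches to the interferon-stimulated response element (ISRE), taken as GAAA followed after any 2 bases by a second GAAA, and to TTCNNNGAA, the gamma-activated site (GAS), read on both strands.
B2m (GRCm38, chr2:122147437-122147686, plus strand): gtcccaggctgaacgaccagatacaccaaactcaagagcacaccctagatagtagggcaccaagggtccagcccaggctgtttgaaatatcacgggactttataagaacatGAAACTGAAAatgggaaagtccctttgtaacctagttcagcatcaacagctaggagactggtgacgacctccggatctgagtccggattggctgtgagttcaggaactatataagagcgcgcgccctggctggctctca
Igtp (GRCm38, chr11:58199306-58199555, plus strand): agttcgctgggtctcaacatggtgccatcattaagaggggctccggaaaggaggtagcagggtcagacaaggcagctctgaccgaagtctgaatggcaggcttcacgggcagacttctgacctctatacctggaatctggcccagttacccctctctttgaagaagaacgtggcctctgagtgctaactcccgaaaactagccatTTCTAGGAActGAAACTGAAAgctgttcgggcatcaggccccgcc
The ISRE match began at position -139 from the start site in B2m and at -34 in Igtp, where a GAS match began at -45. Over 250 bases before and 50 after the start, the ISRE letters were found in 3.44% of all promoters, in 20 of 34 promoters of type I interferon-stimulated genes (58.8%), in 11 of 22 of the interferon-gamma list (50%), in 5 of 18 of the MHC class I list (27.8%) and in 0 of 23 of the alveolar macrophage list. The GAS letters were found in 8.3% of all promoters and in 36.4% of those of the interferon-gamma list. Their share was 17.6% in the type I list, 5.56% in the MHC class I list and 4.35% in the alveolar macrophage list. Of the genes tested in these lists 30 of 40, 19 of 29 and 16 of 18 had a RefSeq promoter.

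Components of the pathway in which gasdermin D acts differed in part. Of 30 tested genes of pyroptosis and the inflammasome 20 were lower, 11 at an unadjusted p under 0.05 against 5.5% of all genes, with a median of -0.14. These counts include Gsdmd, the targeted gene itself, which alone passed the adjusted p. In the lungs without Y-linked expression 2 were lower and 2 higher at that p, and with the Y-linked term 7 were lower. The summed level went the other way, 991 to 1101 CPM in WT-RA and 1111 to 1162 CPM in KO-RA, and most of it was Txnip, a thioredoxin-binding protein, with 572, 493 and 523 CPM in WT-RA and 686, 679 and 620 CPM in KO-RA (0.32, SE 0.19, adjusted p = 0.599). Casp1, which encodes the caspase that cuts gasdermin D downstream of inflammasomes, measured 3.49, 4.31 and 2.82 CPM in WT-RA and 2.29, 1.93 and 2.24 CPM in KO-RA (-0.72, SE 0.21, adjusted p = 0.208). Il1b, whose product leaves cells through gasdermin D pores, measured 4.92, 4.04 and 2.75 CPM against 1.78, 2.21 and 2.14 CPM (-0.93, SE 0.31, adjusted p = 0.271). The flagellin receptor gene Naip5 was at -0.47 (SE 0.14, adjusted p = 0.22) and the interleukin-1 receptor antagonist gene Il1rn at -0.48 (SE 0.15, adjusted p = 0.242). In contrast the inflammasome adaptor gene Pycard was at 0.02 (SE 0.12) and the sensor gene Nlrp3 at -0.17 (SE 0.24), both with overlapping groups. Casp4, which encodes the caspase of the non-canonical pathway, was at -0.29 (SE 0.17, adjusted p = 0.599).

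Other inflammatory lists pointed the same way with few members past the adjusted p. For NF-kB and TNF signalling 24 of 31 genes were lower and 7 of them reached an unadjusted p under 0.05 (22.6%, against 5.5% of all genes). They were led by Tnfrsf1b, which encodes TNF receptor 2, with 47.7, 49.7 and 57.4 CPM in WT-RA and 37.8, 39.3 and 38.3 CPM in KO-RA (-0.42, SE 0.08, adjusted p = 0.0639). For chemokines and their receptors 27 of 32 were lower, 12 reached an unadjusted p under 0.05 against 5.5% of all genes, and 0 passed the adjusted p by edgeR. The lowest p among them belonged to the macrophage chemokine gene Ccl6, with 133, 141 and 116 CPM against 102, 83.4 and 80.3 CPM (-0.55, SE 0.13, adjusted p = 0.128).

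Fbp1 showed the largest fold change among autosomal genes past the adjusted p whose 6-lung mean was 1 CPM or more. It encodes fructose-1,6-bisphosphatase, an enzyme of gluconeogenesis, and measured 3.56, 5.01 and 2.92 CPM in WT-RA and 0.547, 0.207 and 0.339 CPM in KO-RA (-3.38, SE 0.42, adjusted p = 0.0135). Of the other 27 genes of the list of gluconeogenesis and fatty acid oxidation 19 were lower, 3 at an unadjusted p under 0.05 against 5.5% of all genes, with a median of -0.08. Mmp12, the macrophage elastase, measured 11.5, 18.7 and 11.7 CPM in WT-RA and 5.95, 5.96 and 5.46 CPM in KO-RA (-1.27, SE 0.18, adjusted p = 0.0182), while 14 of 28 metalloproteinase genes were lower. Saa3, an acute-phase serum amyloid A, went from 2.37, 4.07 and 3.37 CPM to 1.78, 1.52 and 0.983 CPM (-1.20, SE 0.25, adjusted p = 0.0856). Nlrp10, a NOD-like receptor without the leucine-rich repeats of its family, went from 1.85, 2.25 and 2.44 CPM to 1.03, 0.931 and 1.25 CPM (-1.02, SE 0.23, adjusted p = 0.0944).

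Chromosome 14 held 10 of the 79 genes past the adjusted p, 1.69% of its 591 tested genes beside 0.488% over all autosomes. It was picked after all autosomes were seen, and chromosomes 10 and 1 came next with 0.989% and 0.916%. They were Lrmda, Tmem254a, Duxbl1, Ear2, Peli2, Rnase2a, Phf11d, Gm16867, Entpd4b and Slc39a14, all but Peli2 and Slc39a14 lower in KO-RA. Lrmda, Tmem254a and Duxbl1 start between 22.02 and 25.98 Mb of GRCm38, and Gm16867, Entpd4b and Slc39a14 between 69.4 and 70.3 Mb. Tmem254a and Duxbl1 are close neighbours, at 25.923 and 25.979 Mb, as are Gm16867 and Entpd4b, at 69.364 and 69.555 Mb. The 10 genes therefore need not be independent. Lrmda, a gene linked to melanocyte differentiation, measured 2.83, 3.94 and 4.57 CPM in WT-RA and 1.23, 0.793 and 1.22 CPM in KO-RA (-1.80, SE 0.33, adjusted p = 0.0461). Tmem254a, a transmembrane protein gene, measured 83.2, 111 and 138 CPM against 30.1, 50.7 and 42.3 CPM (-1.43, SE 0.23, adjusted p = 0.0442). The homeobox gene Duxbl1 measured 5.83, 8.24 and 11.6 CPM against 4.51, 4.38 and 3.39 CPM (-1.07, SE 0.23, adjusted p = 0.0927). Its family lies in repeated copies, so the origin of its reads is uncertain.

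Gm16867, a gene model without a known role, measured 6.56, 10.2 and 3.99 CPM in WT-RA and 0.923, 1.21 and 0.882 CPM in KO-RA (-2.78, SE 0.44, adjusted p = 0.0347). Entpd4b, a near copy of the Golgi nucleotidase gene Entpd4, measured 26.7, 33.1 and 29.9 CPM against 16.7, 18.1 and 18.9 CPM (-0.74, SE 0.10, adjusted p = 0.0135). The summed level of Entpd4 and Entpd4b was 0.636 in KO-RA of that in WT-RA, so the sum of the copies was lower too. A different case was Zc3h11a, an RNA export factor listed under 2 gene identifiers on chromosome 1. The one named here, ENSMUSG00000102976, measured 87.3, 99.3 and 80.6 CPM in WT-RA and 41.9, 51.5 and 33.3 CPM in KO-RA (-1.08, SE 0.22, adjusted p = 0.0944), but the sum of both identifiers in KO-RA was 0.939 of that in WT-RA, so its lower count is uncertain.

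No list held more than 1 of the 23 genes that were higher in KO-RA. Pirt, a membrane protein of sensory neurons that binds phosphoinositides and the channel TRPV1, measured 0.419, 0.572 and 1.96 CPM in WT-RA and 8.34, 5.79 and 3.90 CPM in KO-RA (2.61, SE 0.49, adjusted p = 0.0689). The nerve and Schwann cell list did not follow, with 10 of 13 members lower and a median of -0.16. Upk3a, a uroplakin that marks a subset of airway secretory cells, measured 0.733, 1.24 and 1.69 CPM against 2.67, 3.10 and 2.88 CPM (1.24, SE 0.27, adjusted p = 0.0922), while the airway secretory list had 11 of 18 genes higher and a median of 0.05. Pde10a, a cyclic nucleotide phosphodiesterase, measured 2.02, 2.22 and 2.92 CPM against 4.72, 4.83 and 5.46 CPM (1.06, SE 0.21, adjusted p = 0.0639), and Pde7b of the same enzyme class was at 0.53 (SE 0.11, adjusted p = 0.079).

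Smaller but even rises were seen in well-expressed genes. Chd9, a chromatin remodeler of the CHD family, measured 221, 208 and 192 CPM in WT-RA and 279, 314 and 337 CPM in KO-RA (0.58, SE 0.09, adjusted p = 0.0292). Peli2, a ubiquitin ligase of Toll-like receptor signalling, had narrow groups, with 49.1, 45.2 and 45.2 CPM against 61.9, 62.1 and 64.8 CPM (0.44, SE 0.07, adjusted p = 0.0292). Limk1, a kinase that acts on actin through cofilin, measured 53.02, 49.8 and 54.5 CPM against 71.0, 74.98 and 68.9 CPM (0.45, SE 0.08, adjusted p = 0.0411). Slc39a14, the zinc and manganese importer ZIP14, measured 16.1, 15.9 and 14.3 CPM against 21.2, 23.3 and 23.2 CPM (0.55, SE 0.10, adjusted p = 0.0393).

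Cd59a, which protects cells from the membrane attack complex of complement, measured 27.5, 22 and 34.5 CPM in WT-RA and 42.2, 46.6 and 46.5 CPM in KO-RA (0.69, SE 0.13, adjusted p = 0.0609). Obsl1, a cytoskeletal adaptor, and Cnbd2, a protein with a cyclic nucleotide-binding domain, were at 0.45 (SE 0.09, adjusted p = 0.0549) and 0.77 (SE 0.13, adjusted p = 0.0292). The gene model Gm49391 was at 1.12 (SE 0.21, adjusted p = 0.0462). The pseudogene Gm46223 was at 1.04 (SE 0.16, adjusted p = 0.0292), and since a pseudogene shares sequence with its parent gene, the source of its reads is uncertain.

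Lists of the alveolar epithelium stayed near 0. Alveolar type 2 genes had a median of -0.03, with 1 of 17 lower at an unadjusted p under 0.05, and alveolar type 1 genes a median of -0.04, with 1 of 16. Ciliated cell genes were higher in 17 of 20, with a median of 0.14 and 0 at that p by edgeR, and the median was -0.07 in the lungs without Y-linked expression. In the aerocyte list, of the capillary cells that face the airspace, 10 of 13 genes were lower and 5 reached that p, against 5.5% of all genes. Its leading gene Kdr, the VEGF receptor 2, measured 374, 363 and 341 CPM in WT-RA and 299, 246 and 258 CPM in KO-RA (-0.43, SE 0.11, adjusted p = 0.162). Lymphatic endothelial genes were higher in 8 of 10, 3 of them at an unadjusted p under 0.05, against 5.04% of all genes. The connexin gene Gja5, of arterial endothelium, passed the adjusted p at -0.44 (SE 0.08, adjusted p = 0.044).

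In the immediate early, heart muscle and cell cycle lists WT-RA replicate 3 lay with or next to the KO-RA lungs. Immediate early genes, which answer acute stimuli within minutes, were lower in KO-RA in 22 of 25, 8 at an unadjusted p under 0.05 against 5.5% of all genes. Their sums were 2674 to 4430 CPM in WT-RA and 2030 to 2763 CPM in KO-RA. Without WT-RA replicate 3 the count at that p was again 8, with 4 past the adjusted p, and it was 1 without WT-RA replicate 1, 4 without WT-RA replicate 2 or KO-RA replicate 3, and 5 without KO-RA replicate 1 or 2. Nr4a1, an orphan nuclear receptor of this class, measured 273, 158 and 68.5 CPM in WT-RA and 39.5, 37.6 and 58.7 CPM in KO-RA (-1.88, SE 0.62, adjusted p = 0.336). Heart muscle genes, which a lung sample can carry from its pulmonary veins or attached tissue, summed to 243 to 506 CPM in WT-RA and 214 to 232 CPM in KO-RA. Of 19 tested, 18 were lower, 10 at an unadjusted p under 0.05 against 5.5% of all genes. That count was 14, with 9 past the adjusted p, without WT-RA replicate 3, but 3 without WT-RA replicate 2 and 4 with a term for Y-linked expression. WT-RA replicate 3 had the lowest sum of its group in both lists, and their part in the lower macrophage and interferon genes was not tested. Cell cycle genes went the other way, 32 of 35 higher, 7 at an unadjusted p under 0.05 against 5.04% of all genes. That count was 26 without WT-RA replicate 3, 12 without KO-RA replicate 2 or with the Y-linked term, 2 without WT-RA replicate 2, and 1 without WT-RA replicate 1 or KO-RA replicate 1. With all lungs 0 passed the adjusted p by edgeR, and DESeq2 gave 9 at an unadjusted p below 0.05.

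The erythroid list had a mean deviation of -0.21 to -0.03 in the WT-RA lungs and of 0.00219 to 0.31 in the KO-RA lungs. By that measure the groups were apart by a small margin, but by summed level they overlapped. Erythroid genes were higher in 21 of 25, with 11 not overlapping between groups against 7.36% of all genes. Of the 25 genes, 6 had an unadjusted p below 0.05 against 5.04%. The sums were 16903, 16970 and 19122 CPM in WT-RA and 27848, 18743 and 13694 CPM in KO-RA. KO-RA replicate 1 thus stood apart above the other lungs, and KO-RA replicate 3 was the lowest. Without KO-RA replicate 1, 16 of 25 were higher and 2 reached that p, and without WT-RA replicate 2 the count was 3.

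**Figure D3:**
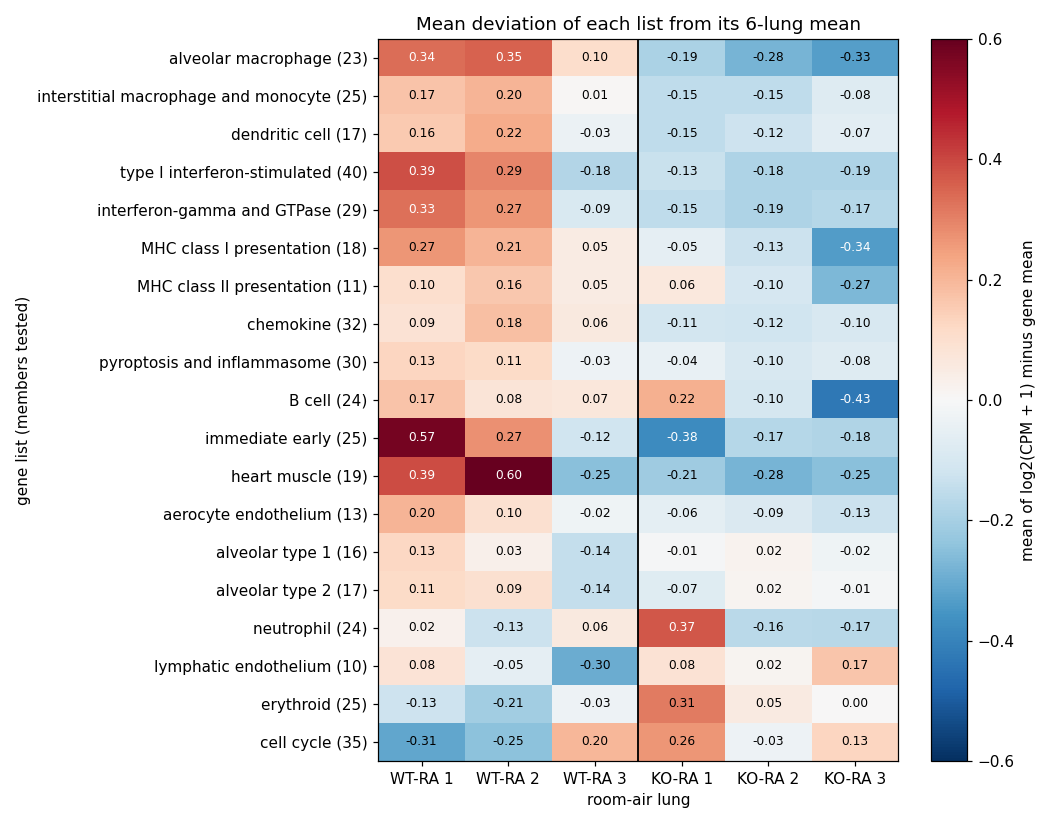
Mean deviation of each gene list from its mean over the 6 room-air lungs, as log2(CPM + 1), with lungs in columns and lists in rows with their number of tested genes. The alveolar macrophage row is positive in all 3 WT-RA lungs (0.10 to 0.35) and negative in all 3 KO-RA lungs (-0.33 to -0.19), whereas in the type I interferon and heart muscle rows WT-RA replicate 3 has values of -0.18 and -0.25, within the KO-RA lungs' range or next to it.

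The same genotypes were compared in hyperoxia lungs and in room-air retinas, which came from other mice. Leaving out Gsdmd, 55 of the 78 genes past the adjusted p had the same direction in the hyperoxia lungs (70.5%, beside 54.2% of all autosomal genes). Y-linked genes were expressed in 3 of 3 KO-O2 and 1 of 3 WT-O2 lungs, so sex was unevenly spread there in the same sense as in room air, and its part in the shared direction was not tested. Of the 78 genes, 21 reached an unadjusted p under 0.05 in the same direction and 3 in the opposite one, against 2.75% of all genes higher and 3.43% lower in KO-O2, and 1, Lrmda, passed the adjusted p there (-2.33, SE 0.35, adjusted p = 0.0374). In the hyperoxia lungs the median was -0.14 for the 55 lower genes beside -0.72 in room air. Fbp1 was the exception with a tested difference, at 0.648, 0.378 and 0.709 CPM in WT-O2 and 1.82, 1.24 and 0.602 CPM in KO-O2. Its groups overlapped there, and the interaction of genotype and exposure was 4.45 on the log2 scale (SE 0.60, adjusted p = 0.0428). These members were chosen by their room-air values, so a smaller value in other mice is part of that choice.

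In the retinas, where all 3 WT-RA and all 3 KO-RA samples expressed Y-linked genes, 33 of the 68 genes tested there had the same direction (48.5%), and 7 reached an unadjusted p under 0.05 in that direction and 4 in the other, against 7.4% of all genes higher and 6.27% lower in KO. Besides Gsdmd, 5 genes reached an unadjusted p under 0.05 in the same direction in all 3 comparisons, namely Gm16867, Tmem254a, Entpd4b, Cd59a and Alox5ap, the last encoding the activating protein of leukotriene synthesis. Tmem254a measured 7.84, 7.40 and 4.41 CPM in WT-RA retinas and 2.74, 1.51 and 1.95 CPM in KO-RA retinas (-1.66, SE 0.34, unadjusted p = 0.000447, adjusted p = 0.231). Cd59a was higher in KO in each, by 0.69, 0.53 and 0.43. Of these 5 genes, Gm16867, Tmem254a and Entpd4b lie on chromosome 14. The difference in Alox5ap was -0.48 in room-air lung, -0.23 in hyperoxia lung and -1.01 in retina.

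**Figure D4:**
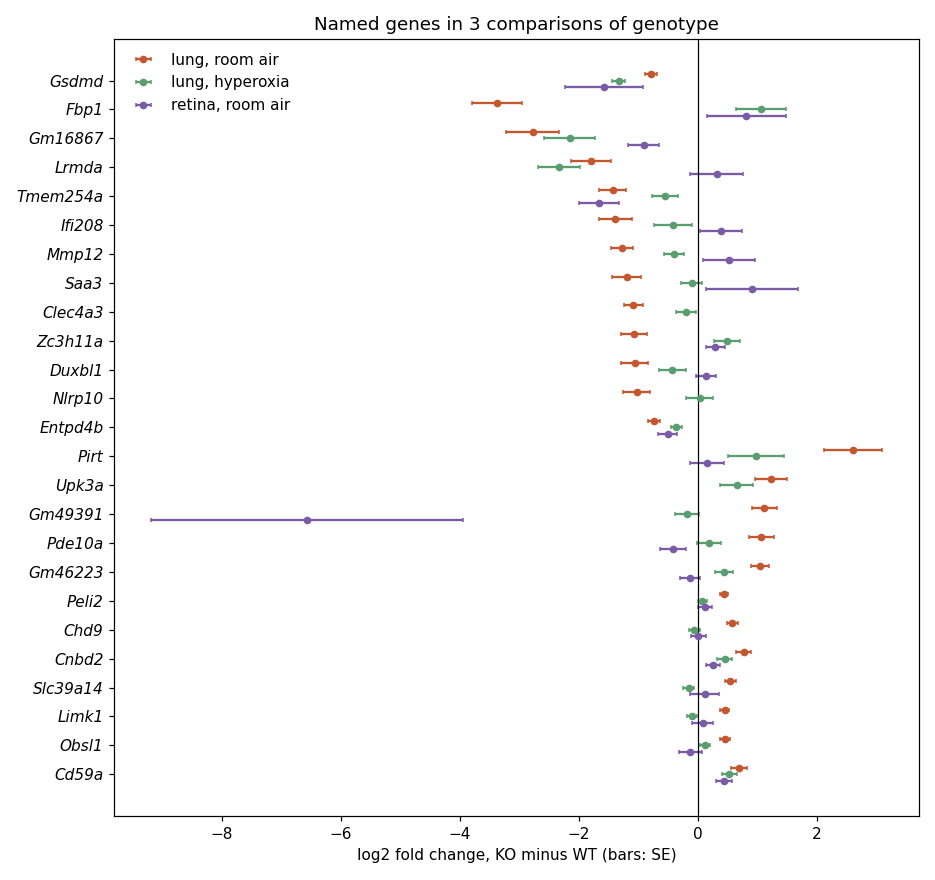
Log2 fold change of KO over WT for the named genes in room-air lung, hyperoxia lung and room-air retina, with bars for the standard error, and no point where a gene was not tested in the retina. Gsdmd and Entpd4b are below 0 and Cd59a above 0 in all 3 comparisons, Fbp1 is below 0 only in room-air lung (-3.38 against 1.07 and 0.81), and Gm49391 has a wide error in the retina (-6.57, SE 2.62).

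Genes near Gsdmd on chromosome 15 were examined as a group, since they lie next to the edited locus. Of 178 genes tested within 5 Mb, 90 were lower and 88 higher, with a median of -0.00074. In that window 20 reached an unadjusted p under 0.05 in either direction (11.2%, beside 10.5% of all autosomal genes), and 1 passed the adjusted p. That gene was Ly6a, the stem cell antigen Sca-1, an interferon-inducible gene of endothelium and leukocytes, with 175, 166 and 139 CPM in WT-RA and 118, 119 and 88.7 CPM in KO-RA (-0.56, SE 0.12, adjusted p = 0.0856). Its close neighbours Ly6i, Ly6c1 and Ly6e, picked after their values were seen, were also lower without overlap (-1.365, -0.36 and -0.29). Their adjusted p values were 0.233, 0.337 and 0.366. Of the same family Ly6h was higher (0.64), and Ly6k overlapped between groups (-0.64). In the hyperoxia lungs Ly6a, Ly6i, Ly6c1 and Ly6e were at -0.14, 0.32, -0.13 and -0.08.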

How the data were processed

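RNA from whole mouse lungs was sequenced, and the authors quantified reads with kallisto after quality control with FastQC, per the labels. The deposited values are the authors' estimated counts per gene, as kallisto makes them, which need not be whole, and how transcripts were scaled to genes is not given in the sources used here. The labels name the build mm10 while the methods name a GRCm39 annotation, so gene symbols and chromosomes were matched by gene ID to a GRCm38 annotation (35868 of 36109 IDs matched) and no coordinate comes from the counts. Promoters and their positions are RefSeq's on GRCm38.p6.

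Counts were rounded and tested with edgeR 4.0.16 in R 4.3.3 (TMM, filterByExpr by group, robust quasi-likelihood fit) on all 12 lungs in one fit, with the contrast KO-RA minus WT-RA and Benjamini-Hochberg adjustment over the 16819 genes tested, and the retinas were fitted separately. Genes were called past a 2-fold difference with p below 0.05 and adjusted p below 0.1, or by the adjusted p alone. Named genes were Gsdmd, then the 12 largest called changes in each direction with at least 1 CPM on average and no overlap, filled up by p, at most 4 members of each list by p, defining markers, and genes within 5 Mb of Gsdmd. Others were chosen after their values were seen. The members and the 58 gene lists were chosen with earlier results of these data known. Each sample is a separate mouse, the labels name no litter, and p-values measure the spread between these samples. Totals of 28763661 to 29210924 counts set the counting precision. No pair of replicates agreed within sampling noise, so none was merged. Alternatives were DESeq2 1.42.0, RLE size factors, no filter, the 6 room-air lungs alone, a term for Y-linked expression, the lungs without it, other fold thresholds and leaving out each lung. The scripts were tested on simulated data.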

Additional observations from a re-analysis of the deposited data

Results flagged for a closer look

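Fbp1, which encodes the gluconeogenic enzyme fructose-1,6-bisphosphatase, was picked out because the effect of genotype differed between room air and hyperoxia by a test of the difference itself. Its log2 fold change of KO over WT was -3.38 (SE 0.42) in room-air lungs and 1.07 (SE 0.42) in hyperoxia lungs, and the interaction was 4.45 (SE 0.60, adjusted p = 0.0428, edgeR quasi-likelihood test). All 3 WT-RA lungs exceeded all 3 KO-RA lungs, whereas the WT-O2 and KO-O2 lungs overlapped. DESeq2, an alternative chosen after seeing the data, gave 9 such genes among those past the adjusted p in room air where edgeR gave 1.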

How the results depend on the processing

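All 79 genes past the adjusted p kept their sign under every alternative, while some list medians changed sign, such as those of B cells (-0.41 to 0.0076 with 1 lung left out) and brown fat (-0.66 to 0.013). Against 21 genes called with the fold threshold (6 higher, 15 lower) and 79 by adjusted p alone (23 higher, 56 lower), DESeq2 gave 65 (19 and 46) and 404 (153 and 251), and the 6 room-air lungs alone gave 10 (2 and 8) and 26 (6 and 20). A term for Y-linked expression gave 0 (0 and 0) and 0 (0 and 0) by edgeR, with 1210 genes at an unadjusted p under 0.05, and the lungs without Y-linked expression gave 1 (1 and 0) and 1 (1 and 0). Leaving out 1 lung gave 0 to 107 with the fold threshold (0 to 37 higher, 0 to 70 lower) and 1 to 591 by adjusted p alone (0 to 273 higher, 1 to 318 lower), the highest without WT-RA replicate 3 and the lowest without KO-RA replicate 3. A fold of 1.5 gave 48 genes and no fold threshold 79. The share of lower genes among those past the adjusted p was 70.9%, and it was 62.1% with DESeq2 and 53.8% without WT-RA replicate 3. Gsdmd was -0.77 (adjusted p = 0.158) with the Y-linked term, -0.74 (adjusted p = 0.867) in the lungs without Y-linked expression and -0.82 to -0.75 with 1 lung left out. The interaction test, with DESeq2 as an alternative chosen after seeing the data, gave 9 genes against 1. Of the list medians 637 moved by less than the spread between lungs and 35 by more, and of the values of named genes 142 were past the adjusted p and 146 were not. The cause of these changes was not tested beyond the smaller number of lungs where lungs were left out. No paired analysis was possible because the labels give no replicate numbers shared by the groups.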

Other observations

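Of the 617 tested genes outside the autosomes, 3 passed the adjusted p. The mitochondrial gene mt-Nd3, a subunit of respiratory complex I, measured 398, 344 and 338 CPM in WT-RA and 16.3, 13.4 and 39.9 CPM in KO-RA (log2 fold change -3.95, adjusted p = 0.0182). Gm28438, a near copy of it on chromosome 1, measured 7.82, 13.2 and 117 CPM in WT-RA and 295, 307 and 359 CPM in KO-RA (2.80, SE 0.95, adjusted p = 0.347). The sum of both in KO-RA was 0.854 of that in WT-RA, so the value of either alone is uncertain. In the hyperoxia lungs and the retinas mt-Nd3 was likewise lower and Gm28438 higher in KO, given here as CPM scaled by library total. In the hyperoxia lungs mt-Nd3 was 449, 428 and 341 CPM in WT-O2 and 18.4, 34.2 and 30.8 CPM in KO-O2. Gm28438 was 0, 1.21 and 0 CPM in WT-O2 and 422, 442 and 460 CPM in KO-O2. In the retinas mt-Nd3 was 5651, 6066 and 5858 CPM in WT-RA and 174, 676 and 519 CPM in KO-RA. Gm28438 varied widely between WT-RA retinas, at 2026, 299 and 44.4 CPM, and was 2857, 5092 and 4612 CPM in KO-RA. Their sum was not kept there, at 7676, 6365 and 5902 CPM in WT-RA and 3030, 5768 and 5131 CPM in KO-RA. The split of mt-Nd3 thus followed genotype in all 3 comparisons, and its cause was not tested. The X-linked Cybb is described above, and the gene model Gm14654 was higher in KO-RA (1.84, adjusted p = 0.0461).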
